A study of Homo sapiens with 4 samples.

Results

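The 6 genes described here encode proteins that move small molecules across the membranes of the mitochondrion: the inner-membrane carriers SLC25A1, SLC25A3, SLC25A11 and SLC25A39, and the outer-membrane channels VDAC1 and VDAC2. Their mRNAs are made in the nucleus, and the study set out to find which RNAs the protein LARP4 binds in HEK293, a line derived from human embryonic kidney. Members were all listed intervals that overlapped, on the gene's own strand, a fixed hg19 window for each gene. They numbered 90 of 171755 intervals in replicate 1, 80 of 191899 in replicate 2 and 16 of 7153 in the list for the whole series. Binding was measured by eCLIP, in which ultraviolet light fixes proteins to the RNA beneath them, an antibody against LARP4 pulls down the fragments, and these are compared with input RNA of the same size range. There were 2 LARP4 eCLIP samples and 2 size-matched input samples, all from HEK293 cells exposed to 400 mJ/cm2 at 254 nm. The list for the whole series is marked WT in its name. The labels give no other genotype or treatment. The labels call the samples biological replicates.

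SLC25 carriers are a family of inner-membrane proteins, each of which exchanges or imports particular metabolites. VDAC proteins form the wide pores through which metabolites and ATP cross the outer membrane. LARP4 belongs to the La-related proteins, binds poly(A) RNA and the poly(A)-binding protein, and is known for stabilising mRNAs.

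Each interval, called a cluster below, carries the authors' log2 fold of LARP4 eCLIP over input and a −log10 p. A log2 fold of 3 is 8-fold over input. A cluster was called enriched when its log2 fold and its −log10 p were both 3 or more. The fold is relative to the input, so it is not a measure of how abundant an mRNA is. The reads behind a cluster are unknown. The windows hold 1-based hg19 positions. SLC25A1 lies on chromosome 22, minus strand, 19163000 to 19166400. SLC25A3 lies on chromosome 12, plus strand, 98987300 to 98998000. SLC25A11 lies on chromosome 17, minus strand, 4840400 to 4843500, and SLC25A39 on the same chromosome and strand, 42396900 to 42402300. VDAC1 lies on chromosome 5, minus strand, 133307500 to 133340900, and VDAC2 on chromosome 10, plus strand, 76969900 to 76991300. No cluster of any list lay on the opposite strand of a window. Exons, introns and UTRs were not assigned, because no hg19 annotation was used here, and no sequence is printed for the same reason.

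LARP4 eCLIP clusters of the 6 genes were enriched in 19 of 90 cases (replicate 1) and 26 of 80 (replicate 2). That is 21.1% (Wilson 95% interval 14.0 to 30.6) and 32.5% (23.2 to 43.4), against 5.01% and 5.50% of all clusters. The median log2 fold was 2.11 and 2.31, against 1.28 and 1.30 over all clusters. Clusters below input were 2 of 90 and 4 of 80, where the whole lists had 11.6% and 11.2%. With the log2 fold at 4 or more, 2 of 90 (2.22%) and 6 of 80 (7.50%) passed, against 1.46% and 1.63% of all clusters. With it at 1 or more and the same limit on p, 74 (82.2%) and 62 (77.5%) passed, against 14.0% and 13.7%. The intervals treat clusters as independent, which clusters of 1 gene are not, and cover counting error only.

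The background differs with the clusters it counts. A −log10 p of at least 3 was reached by 82.2% and 78.8% of the members' clusters, but by 14.2% and 13.8% of all clusters. Among clusters past that limit, 19 of 74 (25.7%) and 26 of 63 (41.3%) of the members' clusters had a log2 fold of at least 3. Over the whole lists 35.4% and 39.9% of such clusters did. The median log2 fold past that limit was 2.35 and 2.72 in the members, against 2.64 and 2.73 over the lists. With this denominator the members were below the background in replicate 1 and near it in replicate 2, for the share and for the median. What sets the gap between the denominators was not tested.

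The carriers held most of the enriched clusters. Of their clusters, 18 of 65 (27.7%) were enriched in replicate 1 and 24 of 55 (43.6%) in replicate 2. For the channels the counts were 1 of 25 (4%) and 2 of 25 (8%), close to the background of 5.01% and 5.50%. Past the limit on p, the enriched share was 29.0% and 47.1% in the carriers, against 35.4% and 39.9% over the lists. In the channels it was 1 of 12 (8.33%) and 2 of 12 (16.7%). On that denominator the channels were below the background in both replicates, and the carriers below it in replicate 1 and above it in replicate 2. By gene the split was not clean. The share was 50% and 66.7% in SLC25A1, 22.2% and 43.8% in SLC25A3, and 57.1% and 60% in SLC25A11. It was 9.09% and 31.2% in SLC25A39, 0% and 11.1% in VDAC1, and 33.3% in VDAC2 (1 of 3) in both replicates. The carriers and the channels were not tested against each other. The series-wide list held 15 regions in the 4 carriers and 1 in the 2 channels. SLC25A11 had 5 regions, SLC25A1 and SLC25A3 had 4 each, SLC25A39 had 2, VDAC2 had 1 and VDAC1 had none.

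The order of the genes by median log2 fold was the same in both replicates. SLC25A11 had the highest medians, 3.07 and 3.20, followed by SLC25A1 with 2.96 and 3.14. These neighbours overlapped in their replicate values. SLC25A3 followed with 2.43 and 2.72, below both replicates of SLC25A1 and above both of VDAC2. VDAC2 had 1.85 and 2.33 and SLC25A39 had 1.77 and 2.11, and these also overlapped. VDAC1 was lowest with 1.46 and 1.60, below both values of SLC25A39. With 2 replicates a gene, an exact unpaired permutation test between 2 genes cannot give a two-sided p below 0.333. The genes were read in the same replicates, so such a test would ignore their pairing. No test between genes was run.

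**Figure D1:**
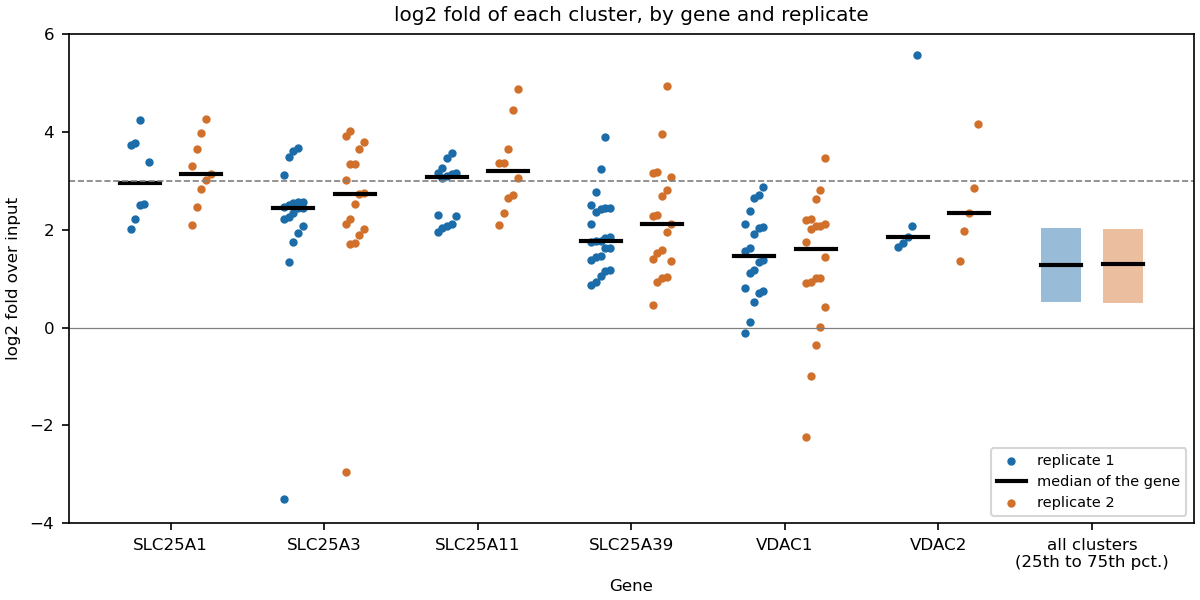
Each point is the log2 fold over input (vertical axis) of 1 cluster, by gene and replicate, with black lines at the medians and a dashed line at the threshold of 3. Bars at the right run from the 25th to the 75th percentile of all clusters of each list. Most points of the 4 carriers lie above the medians of all clusters, 1.28 and 1.30, while those of VDAC1 lie on both sides of them.

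SLC25A1, the citrate carrier that exports citrate from the matrix for fatty acid synthesis, had few clusters, most of them high. It had 8 clusters in replicate 1, from a log2 fold of 2.00 to 4.23, and 9 in replicate 2, from 2.10 to 4.26. Every one passed a −log10 p of 3. Enriched clusters were 4 of 8 and 6 of 9, and no value fell below 2.

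All 4 regions of SLC25A1 lay 175 to 727 bases from the 3′ end of the window. The region with the highest lower value was also the one nearest the 3′ end, at 19163140 to 19163210. It had log2 folds of 3.73 in replicate 1 and 4.26 in replicate 2, or 4.0 ± 0.38 (SD, n = 2), at least 13.3-fold over input in both, with −log10 p of 41.9 and 40.0. Its neighbour at 19163211 to 19163295 touched it and had 3.39 and 3.97. A region of 29 bases at 19163713 to 19163741 was higher in replicate 1, at 4.23 against 3.14. The region at 19163499 to 19163560 was the one with a replicate below the threshold, at 2.53 in replicate 1 and 3.65 in replicate 2. Clusters near the 5′ end averaged lower, 2.11 and 2.47 in the 2 replicates, with the lowest pair at 19166168 to 19166200 in replicate 1, 2.22 and 2.10.

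SLC25A3, the phosphate carrier that brings phosphate into the matrix for ATP synthesis, combined a high group near the 3′ end of its clusters with the lowest values of all 6 genes. It had 19 clusters in replicate 1 and 17 in replicate 2, of which 4 and 7 were enriched. The region with the highest lower value, at 98995206 to 98995284, had log2 folds of 3.67 and 3.92, or 3.79 ± 0.17 (SD, n = 2), at least 12.7-fold in both replicates. The next, at 98995285 to 98995362, had 3.61 and 3.92, with the same replicate 2 cluster behind it, so these values are not separate measurements in replicate 2. The region nearest the 3′ end, at 98995369 to 98995471, had 3.48 and 3.65. These 3 regions lay side by side and had replicate SDs of 0.13 to 0.21, where the 16 regions ranged from 0.08 to 1.00.

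The other region of SLC25A3, 20 bases at 98992462 to 98992481, was 2.43 in replicate 1 and 3.78 in replicate 2. The highest cluster of the gene in replicate 2, 11 bases at 98995152 to 98995162 with 4.01, overlapped clusters of 1.94 and 2.57 in replicate 1. Replicate 2 was also higher at the neighbouring clusters 98993733 to 98993820 (3.35, against 2.51) and 98993821 to 98993899 (3.33, against 2.22). Over the 19 pairs of overlapping clusters in SLC25A3, replicate 2 was higher in 16, and the mean difference was 0.49 on the log2 scale. Some replicate 2 clusters stand in more than 1 of these pairs.

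Between those clusters lay one far below input in both replicates. At 98993530 to 98993602 (replicate 1) the log2 fold was −3.50, and at 98993526 to 98993596 (replicate 2) it was −2.94, a mean of −3.22 ± 0.39 (SD, n = 2). Log2 folds of −2 or lower made up 0.579% and 0.503% of all clusters. The nearest clusters on its 5′ and 3′ sides were at 2.43 and 2.51 in replicate 1 and at 3.78 and 3.35 in replicate 2. Those on the 5′ side ended at 98992479 and 98992481, with no interval listed in between. The low values were seen in clusters of 73 and 71 bases, and the lists do not show how far they reach. The authors' −log10 p was 0 for all 19888 and 21500 clusters with a negative log2 fold in the lists, so the low values carry no p that could be read. RefSeq (GRCh38.p14) places a small nucleolar RNA gene, SNORA53, inside SLC25A3. Whether the low cluster lies on it was not tested, since no coordinates were converted between builds.

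SLC25A11, the oxoglutarate carrier, exchanges matrix 2-oxoglutarate for malate as a step of the malate-aspartate shuttle. It had the highest share of enriched clusters in replicate 1, 8 of 14 (57.1%), and had 6 of 10 (60.0%) in replicate 2. All its clusters passed a −log10 p of 3, and the lowest log2 folds were 1.94 and 2.09. A run of 4 touching regions covered 200 bases from 4840829 to 4841028, centred about 529 bases from the 3′ end of the window. Within this run the log2 fold was highest in the 17 bases at 4840933 to 4840949, 3.56 in replicate 1 and 4.88 in replicate 2, or 4.22 ± 0.93 (SD, n = 2). The region next to it at 4840907 to 4840932 had 3.14 and 4.44, and the outer pieces had 3.47 and 3.35 at 4840950 to 4841028 and 3.09 and 3.36 at 4840829 to 4840906. Replicate 2 thus had a sharper summit than replicate 1, and both were at least 8.50-fold over input along the whole run.

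SLC25A11 was the one gene of the 6 with a series-wide region at its 5′ end. That region, at 4843161 to 4843272, had log2 folds of 3.17 and 3.05, or 3.11 ± 0.08 (SD, n = 2). Between that region and the 3′ part the clusters were lower, from 1.94 to 2.31 in replicate 1 and at 2.09 and 2.33 in replicate 2, and the lowest pair, at 4841807 to 4841809 in replicate 1, had 2.11 and 2.09.

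SLC25A39, a carrier required for glutathione import into mitochondria, had 24 clusters in replicate 1, the most of the 6 genes there, and 19 in replicate 2, with 1 narrow summit. Its 2 regions touched each other 346 and 384 bases from the 3′ end of the window. The higher, 25 bases at 42397272 to 42397296, had log2 folds of 3.89 and 4.93, or 4.41 ± 0.74 (SD, n = 2), at least 14.8-fold in both replicates. The other, at 42397221 to 42397271, had 3.24 and 3.96. In replicate 1 these were the only enriched clusters of SLC25A39, 2 of 24 (8.33%), while replicate 2 had 5 of 19 (26.3%). The 3 others in replicate 2 were 3.15 at 42397028 to 42397130, 3.07 at 42397333 to 42397402 and 3.17 at 42402081 to 42402184, the last of them at the 5′ end. At that 5′ position replicate 1 had 3 shorter clusters with log2 folds of 2.37 to 2.50. Clusters in the middle of the gene were low in both replicates, with the lowest pair, at 42400209 to 42400218 in replicate 1, at 0.94 and 0.47.

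VDAC1, the most abundant pore protein in many cells and a docking site for hexokinase, had no series-wide region. In replicate 1, 0 of its 20 clusters were enriched, where a limit of 3 counts allows a share of 15.0%. In replicate 2, 1 of 20 was. That cluster, 3.47 at 133307782 to 133307841, overlapped a replicate 1 cluster with 1.55, the largest gap between replicates in VDAC1. The pair with the highest lower value, at 133308198 to 133308275 in replicate 1, had 2.64 and 2.62, or 6.15-fold in the lower replicate. The highest replicate 1 value was 2.87 at 133308519 to 133308552, just under the threshold. Its 3′ clusters were thus over input in both replicates without reaching 8-fold in both.

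Clusters were spread over the whole VDAC1 window of 33400 bases. RefSeq (GRCh38.p14) places the protein-coding gene LOC124901069 inside VDAC1 and has TCF7 overlapping it. Whether any cluster of the window lies on either gene was not tested, since no coordinates were converted between builds. A −log10 p of at least 3 was reached by 9 of 20 in each replicate. Folds below input were seen at 1 cluster in replicate 1 and 3 in replicate 2, the lowest −2.24 at 133324428 to 133324453. The lowest overlapping pair, at 133338601 to 133338655 in replicate 1, had −0.11 and −0.35.

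VDAC2, the channel isoform that binds the apoptosis factor BAK, had 5 clusters in each replicate and all 5 overlapped between replicates. Its region at 76990890 to 76990963 lay 374 bases from the 3′ end of the window and had the highest mean of the 6 genes. Its replicates were at 5.57 and 4.15, or 4.86 ± 1.00 (SD, n = 2), at least 17.8-fold in both replicates. This was also the largest SD among the 16 regions, and the −log10 p of 12.4 in both replicates was lower than at the 3′ regions of the carriers with lower folds. A log2 fold as high or higher was found in 0.0902% of all clusters of replicate 1 and 1.26% of replicate 2. The 4 other clusters were far lower, from 1.65 to 2.07 in replicate 1 and from 1.36 to 2.86 in replicate 2. The lowest pair, at 76970891 to 76970919 in replicate 1 near the 5′ end, had 2.07 and 1.36.

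**Figure D2:**
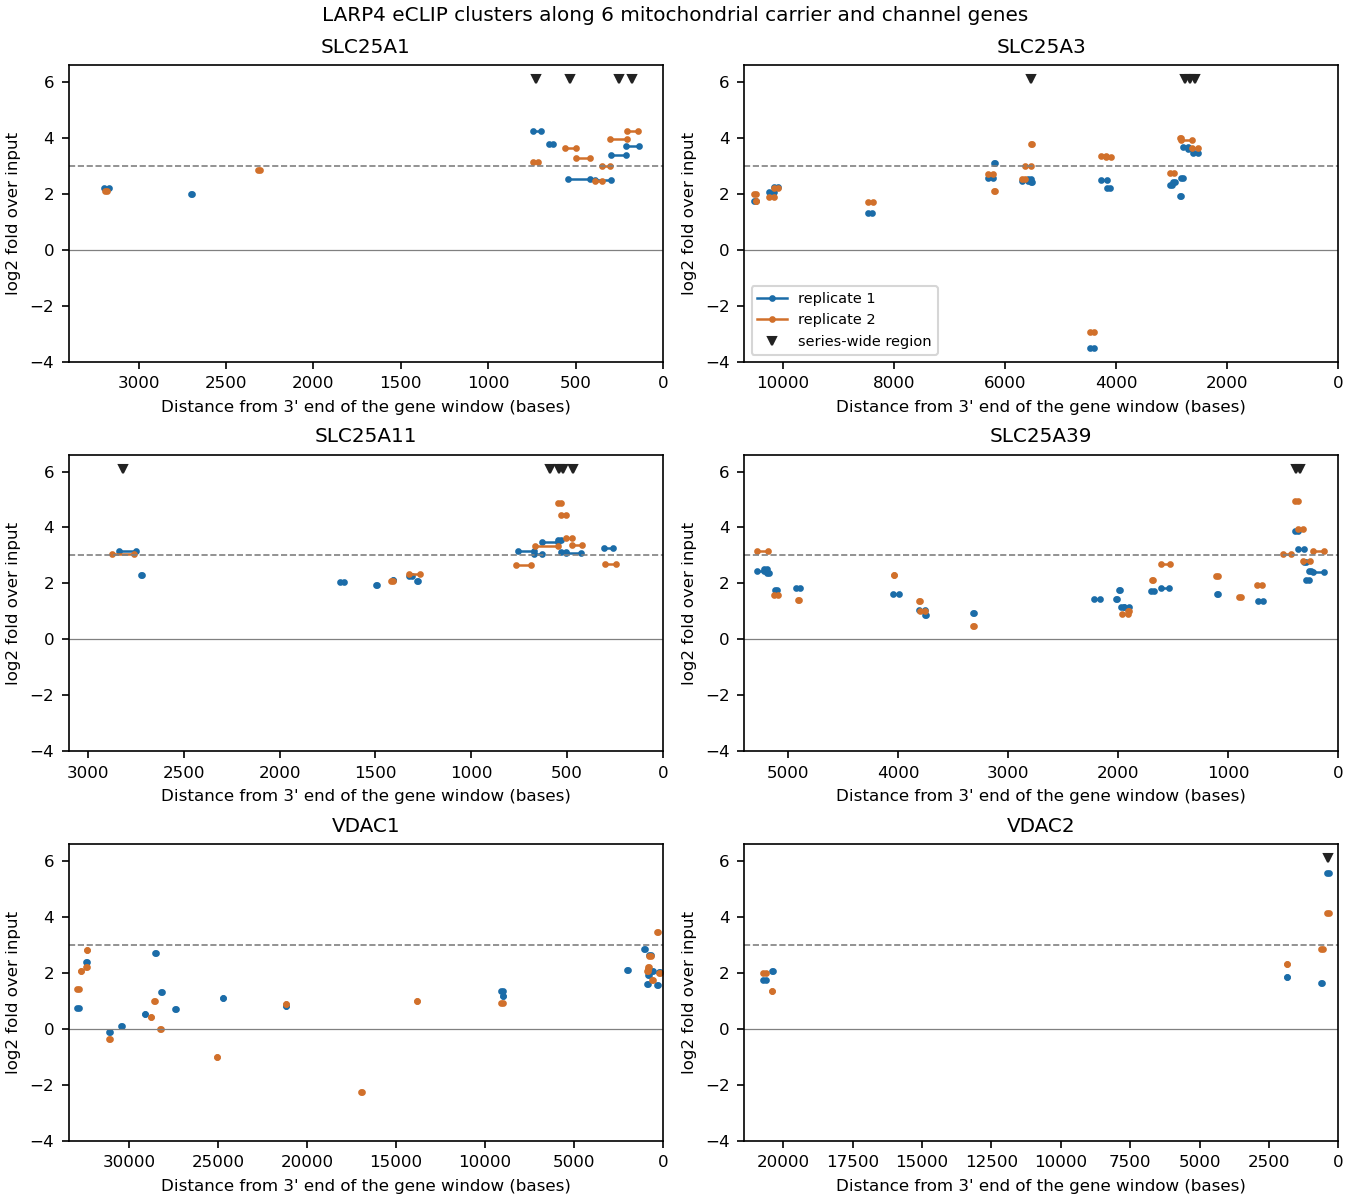
Each panel shows 1 gene, with the distance from the 3′ end of its window in bases on the horizontal axis (5′ at the left) and the log2 fold over input on the vertical axis. Horizontal strokes are clusters of replicate 1 (blue) and replicate 2 (orange), triangles mark series-wide regions and the dashed line is the threshold of 3. Regions gather at the right in SLC25A1, SLC25A39 and VDAC2, SLC25A11 has 1 more at the 5′ end, and the pair at −3.50 and −2.94 in SLC25A3 stands alone.

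Enriched clusters lay mostly at the 3′ side of these genes. Each gene's stretch from its first to its last cluster in either replicate was divided into 3 parts of equal length. The 3′ part held 17 of the 19 enriched clusters in replicate 1 and 22 of 26 in replicate 2. It held 46 of 90 and 42 of 80 of all the members' clusters. The enriched share in the 3′ part was 37.0% and 52.4%, against 5.88% and 15.4% in the middle and 3.70% and 8% in the 5′ part. The 3′ part had a higher mean log2 fold than the 5′ part in 6 of 6 genes in both replicates, by 0.27 to 1.25 in replicate 1 and by 0.52 to 1.44 in replicate 2. The 5′ mean rested on 2 and 2 clusters in SLC25A1 and in VDAC2, and on 2 and 1 in SLC25A11. It rested on 4 and 5 in SLC25A3, 8 and 6 in SLC25A39 and 9 and 9 in VDAC1. Among all runs of at least 5 clusters, ended by a gap of over 5000 bases, 55.6% and 54.6% had the higher mean in the 3′ part. A run is not the same unit as a gene's stretch, which was kept whole across such gaps. VDAC1 and VDAC2 have gaps of over 5000 bases, so the rule for runs would have split them. Over all these runs the enriched share was 8.12% and 8.91% in the 3′ part, 4.22% and 4.48% in the middle and 3.93% and 4.74% in the 5′ part. A −log10 p of at least 3 was reached by 82.2% and 78.8% of the members' clusters, against 14.2% and 13.8% of all clusters. The shares of the parts are not given past that limit, so the runs are no like-for-like background for their level. The members and the runs were not tested against each other.

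The size of the 3′ excess differed among the genes. On the log2 scale it was 1.12 and 1.44 in VDAC2, 1.25 and 0.93 in SLC25A1, 0.88 and 1.19 in VDAC1, and 0.54 and 1.04 in SLC25A39. VDAC1 had this higher 3′ mean with 0 enriched clusters in replicate 1 and 1 in replicate 2. Most of its 5′ clusters had a −log10 p below 3. Those past that limit had log2 folds of 2.38 in replicate 1 and 2.82 and 1.44 in replicate 2. Its 3′ part ran from 1.18 to 2.87 and from 0.94 to 3.47, so these values lay within its range. In SLC25A11, SLC25A39 and VDAC1 the middle part was the lowest in both replicates, and the 5′ part lay between. SLC25A11 showed this as 2.74, 2.09 and 3.25 from 5′ to 3′ in replicate 1 and 3.05, 2.21 and 3.58 in replicate 2. The middle part of VDAC1 held 1 cluster in replicate 1 and 3 in replicate 2, the lowest of them at −2.24. SLC25A3 was the exception, with the middle part highest, 2.62 and 2.83, and the 3′ part at 2.13 and 2.58. Without the cluster below input, the 3′ part of SLC25A3 was 2.75 and 3.50, above its middle part, and its excess over the 5′ part was 0.90 and 1.59 in place of 0.27 and 0.67. SLC25A1 and VDAC2 had no cluster in the middle part. The 3′ part of VDAC2 held 3 clusters in each replicate, of which 1 was enriched, at 5.57 and 4.15. The others there were 1.85 and 1.65 in replicate 1, against 1.74 and 2.07 in the 5′ part. In replicate 2 they were 2.33 and 2.86, against 1.98 and 1.36. The excess of VDAC2 in replicate 1 thus rested on its 1 enriched cluster.

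**Figure D3:**
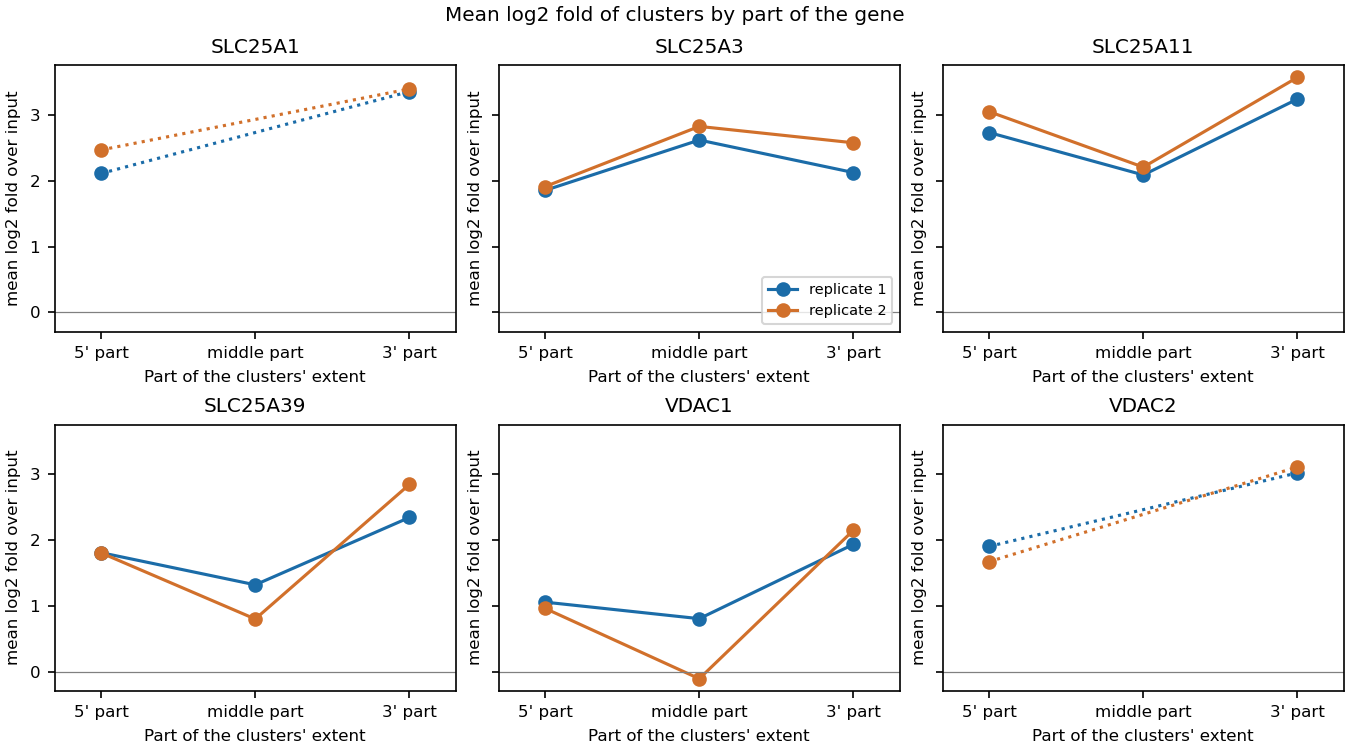
Mean log2 fold over input of the clusters in each of 3 equal parts of a gene's stretch of clusters, for replicate 1 (blue) and replicate 2 (orange). Dotted lines join the outer parts where the middle holds no cluster. In all 6 genes the 3′ part lies above the 5′ part, and SLC25A3 alone has its highest mean in the middle. A point can rest on 1 cluster, as at the 5′ part of SLC25A11 in replicate 2.

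The share by the window gave a smaller number. In the last 20% of the windows lay 11 of 19 and 16 of 26 enriched clusters, 57.9% and 61.5%, with 31.1% and 36.2% of all the members' clusters. In SLC25A3 the last cluster ended 2528 bases before the window did, so none of its clusters was counted there. As the mean of the replicates this share was 59.7%, and it was 19.4% with windows widened by 1000 bases. Over the stretch of clusters, the last 20% held 17 of 19 (89.5%) and 20 of 26 (76.9%).

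Most clusters of these genes were found in both replicates. Among 90 clusters of replicate 1, 76 (84.4%) had a partner in replicate 2, while 44.8% of the whole replicate 1 list did. In replicate 1 a −log10 p of at least 3 was reached by 82.2% of the members' clusters and 14.2% of all. Agreement among clusters past that limit was not computed, so the whole-list values here are no like-for-like background. Both partners were enriched in 15 of the 76 pairs, against 6.51% of all pairs in the lists. With any overlapping cluster taken as a partner, 15 of the 90 clusters (16.7%) were enriched in both, against 3.02% of the list. Another 14 pairs passed the threshold only in replicate 2, 3 only in replicate 1, and 44 did not pass in either. Pairs were counted by replicate 1 cluster, so 1 replicate 2 cluster can stand in several of them. The counts of pairs are therefore not counts of separate replicate 2 clusters. The SD of a single replicate's log2 fold was 0.49 in the members' pairs and 0.66 in all pairs, and 62 of 76 pairs (81.6%) lay within 1 log2 unit, against 73.4% of all pairs. Replicate 2 was higher in 49 of 76 pairs, by a mean of 0.25, against a mean of 0.07 over all pairs of the lists. By gene this mean was 0.20 in SLC25A1 and SLC25A11, 0.36 in SLC25A39 and 0.49 in SLC25A3, while it was −0.07 in VDAC1 and −0.04 in VDAC2. Across the 76 pairs the correlation was 0.84 (Pearson) and 0.79 (Spearman), against 0.74 and 0.67 over all pairs, given as a description, since neighbouring clusters share a gene and a library.

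**Figure D4:**
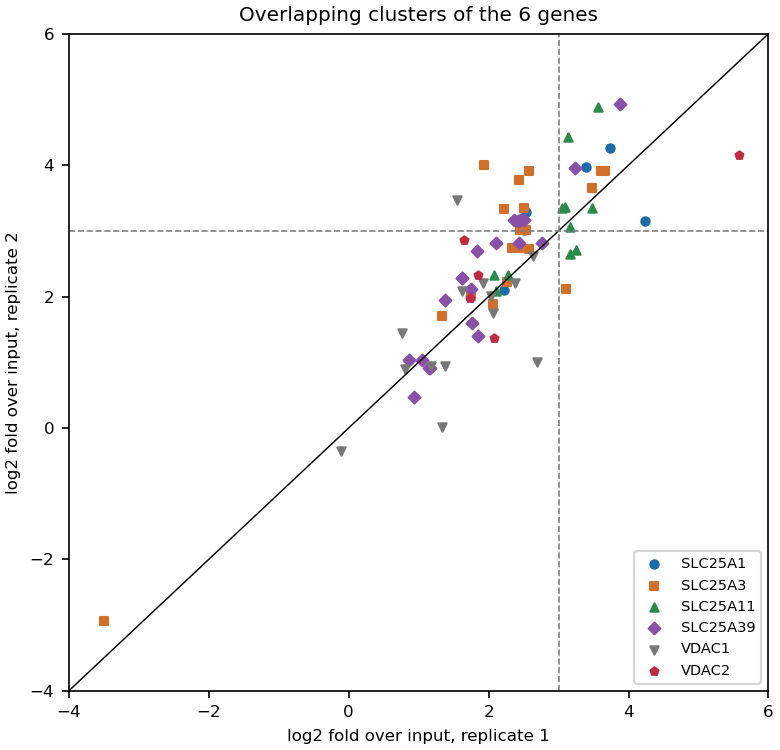
Log2 fold over input in replicate 1 (horizontal) and replicate 2 (vertical) for the 76 pairs of overlapping clusters of the 6 genes, with the line of equal values and dashed lines at the threshold of 3. The 15 pairs enriched in both replicates are at the upper right, the 14 enriched in replicate 2 alone are at the upper left of the crossing, and the pair of SLC25A3 below input is at the lower left.

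The 16 series-wide regions covered 989 bases and had a median authors' log2 fold of 3.70, against 3.65 over all 7153 regions. Their folds were thus ordinary for that list, from 3.07 at the 5′ region of SLC25A11 to 4.86 in VDAC2. An enriched cluster lay behind 14 of 16 regions in replicate 1 and behind all 16 in replicate 2. The 2 exceptions were 19163499 to 19163560 in SLC25A1 and 98992462 to 98992481 in SLC25A3. Replicate 2 had the higher value at 12 of 16, and 9 of 16 had replicates within 1 log2 unit. These counts were not made over all 7153 regions, so they show nothing particular to these genes. Each region had the same ends as a cluster of replicate 1 or replicate 2, so the enriched clusters behind the regions are not separate support for them. Several regions touched, so 16 regions made 10 separate stretches. These were 3 in SLC25A1, 3 in SLC25A3, 2 in SLC25A11 and 1 each in SLC25A39 and VDAC2.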

How the data were processed

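LARP4 eCLIP and size-matched input libraries of HEK293 cells were compared by the authors, and the deposited lists hold the result. Each interval carries the authors' −log10 p (limited to 400) and the authors' log2 fold over input, which was inferred from the values because no file has a header. Per the submitters' processing notes, the build was hg19 and the tools included STAR 2.7.6a, cutadapt 1.14, UMI-tools 1.0.0 and SAMtools 1.6. No source used here says how peaks were called or the series-wide list was made. Intervals of all 25 chromosomes ended within hg19 lengths.

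Windows came from a written rule. Members and thresholds were chosen with earlier results of these data known. An interval belonged to a window by 1 shared base. Partners in the other replicate were those with the longest overlap. Regions took replicate values the same way. Named intervals are each gene's region with the highest lower value, its region nearest the 3′ end and its lowest pair, and others were named after their values were seen. The 3 parts of a gene and the background of runs were added after seeing the data. Other SLC25 and VDAC genes were not analysed here, for lack of an hg19 annotation. Overlap and merging steps were tested on simulated intervals. Depth is unknown. Tools were pandas 2.3.3, numpy 2.4.6, matplotlib 3.10.9 and scipy 1.17.1 in Python 3.11.15.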

Additional observations from a re-analysis of the deposited data

How the results depend on the processing

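Of 109 alternative values for 10 results, 79 stayed within 1.5 times the count or within the SD between replicates, and 30 moved. Counts and shares cannot change sign, and the median and mean log2 folds kept theirs. No paired analysis was possible because the replicate numbers pair eCLIP with input samples, and the lists give that ratio alone, with no input values. At a log2 fold of at least 4, enriched clusters were 2 and 6 in replicates 1 and 2, 1 was enriched in both, the mean share was 4.86% and 66.7% of them lay in the last 20% of the window. At a log2 fold of at least 1 these were 74, 62, 59, 79.9% and 39.5%. With touching intervals merged, counts were 11 and 15, with 8 in both, 10 regions and 53.9% in the last 20%. That last share, 59.7% as the mean of replicates, was 66.9% with windows narrowed by 100 bases, 19.4% with windows widened by 1000 bases, 33.1% for the last 10% and 83.2% on the stretch of clusters, so it depends on where the window ends. It was 54.2% without SLC25A1, 78.8% without SLC25A3, 54.8% without SLC25A11 and 55.0% without SLC25A39. Without SLC25A11, 11 clusters were enriched in replicate 1 and 9 in both. The median log2 fold, 2.21, was 2.37 without SLC25A39, 2.52 without VDAC1 and 2.57 weighted by width. The mean enriched share, 26.8%, was 35.0% by covered bases. By single replicate it ranged from 21.1% to 32.5%, the median from 2.11 to 2.31 and the share in the last 20% from 57.9% to 61.5%. The SLC25A3 3′ part had a mean of 2.35, and 3.13 without the cluster below input.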
